A study of Mus musculus with 2 samples.

Results

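The 8 genes described here encode the main potassium channel subunits of the heart muscle cell: Kcnj2, Kcnip2, Kcnd2, Kcnq1, Kcnh2, Kcna5, Kcnj11 and Abcc9. They were chosen by name, as the genes behind the inward rectifier, the transient outward current, the delayed rectifiers and the ATP-sensitive current, from 27443 genes counted in a pair of mouse studies. All 8 were analysed in the chamber study. In the fixation study Kcna5 was not analysed here, which left 7.

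Potassium channels end the cardiac action potential. Outward potassium current brings the membrane back to rest, and the inward rectifier holds it there between beats. Most of these channels are built from pore-forming subunits and partner proteins, so the balance of partners sets how much current reaches the membrane. In the mouse, repolarisation is fast and leans on the transient outward and other voltage-gated currents, whereas the slower delayed rectifiers carry more of the load in larger mammals such as humans.

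Both studies used wild type C57BL/6 mice and adult heart muscle cells released by enzyme perfusion, sorted into plates and sequenced by SCRB-seq, a plate method that tags the 3′ end of each polyadenylated RNA with a cell barcode and a unique molecular identifier (UMI). In the chamber study the mice were about 3 months old and unfixed cells were labelled by chamber, LA and RA for the atria of the left and right side and LV and RV for the ventricles. In the fixation study ventricular cells of adult mice were sorted either after ethanol fixation (fixed) or without it (live). After a minimum of 1000 gene UMIs and 500 detected genes per cell, 56 LA, 44 RA, 91 LV, 90 RV, 35 fixed and 31 live cells were kept. No animal was named for any cell, so cells are not replicates, each label is 1 pool, and no test was run. All intervals are exact 95% intervals that cover counting error only, not differences between animals or the spread from cell to cell.

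Nuclear-encoded UMIs per pool numbered 933747 for LA, 470095 for RA, 2566040 for LV, 2988611 for RV, 2424636 for fixed and 1483859 for live cells. The median kept cell held 16146 gene UMIs in LA and 4436.5 in RA, against 40953 in LV and 50503 in RV. The cells labelled LA or RA lacked several of the usual atrial markers. Nppa and Bmp10 had no UMI in LA, and Nppa, Sln, Myl7, Myl4 and Bmp10 had none in RA. Stard10 was higher in LA (53.5 CPM) and RA (53.2 CPM) than in LV (26.1 CPM) and RV (36.1 CPM). It held 25 of the 31 atrial marker UMIs in RA. Tbx5 was lower in LA (5.35 CPM) and RA (6.38 CPM) than in LV (30.0 CPM) and RV (19.7 CPM). The summed level of 9 atrial marker genes was 170 CPM in LA and 65.9 CPM in RA, against 76.8 CPM in LV and 77.3 CPM in RV. The 10 cardiomyocyte markers were all present in every pool, at 35649 to 87987 CPM in sum. Among them Myl2, the ventricular light chain gene, was at 9322 CPM in LA and 11721 CPM in RA. It was at 10497 CPM in LV and 10335 CPM in RV, so the atrium-labelled pools held it at a like level. Chamber names are therefore used below as labels only. Red cell globin and related markers summed to 26769 CPM in LA and 49833 CPM in RA, against 12060 CPM in LV and 12984 CPM in RV. Of the 56 LA cells, 2 had more than 0.5% of their nuclear-encoded UMIs from 5 mesothelial markers, and 16.9% of the LA pool came from them. The atrial light chain gene Myl7 stood higher in LA, at 86.7 CPM (81 UMIs), against 1.17 CPM in LV and 0 UMIs in RV, and 66 of its 81 LA UMIs were in those 2 cells. Sln was at 7.50 CPM in LA (7 UMIs), against 0.390 CPM in LV and 1.00 CPM in RV.

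The 6 pore-forming members share the signature of the family, a glycine, an aromatic residue and a glycine that line the selectivity filter through which potassium passes. The coding sequence around these codons is shown for 5 of them because it is the feature that sorts the members into pore-forming subunits and partners. Capitals mark the 9 bases of the 3 filter codons, and each stretch is read 5′ to 3′ on the coding strand of build GRCm38.
Kcnj2: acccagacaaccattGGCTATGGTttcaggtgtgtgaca
Kcnd2: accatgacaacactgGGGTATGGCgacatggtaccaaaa
Kcnh2: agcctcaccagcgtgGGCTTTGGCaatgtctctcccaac
Kcna5: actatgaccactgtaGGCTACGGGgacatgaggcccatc
Kcnj11: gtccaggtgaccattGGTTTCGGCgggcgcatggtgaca

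Kcnh2 and Kcnj11 encode phenylalanine where Kcnj2, Kcnd2 and Kcna5 encode tyrosine. Across all 39 bases Kcnd2 and Kcna5 were the most alike of the 10 pairs, with 25 identical bases. Kcnh2 and Kcna5, each set against Kcnj11, were the least alike, with 14. The Kcnj2 stretch lies in exon 2 at chr11:111072198-111072236, plus strand. The Kcnd2 stretch is split by an intron, with 17 bases in exon 1 at chr6:21217397-21217413 and 22 bases in exon 2 at chr6:21714135-21714156, plus strand. The Kcnh2 stretch lies in exon 7 at chr5:24325540-24325578, minus strand. The Kcna5 and Kcnj11 stretches lie in exon 1 of their transcripts, at chr6:126533730-126533768 and chr7:46099481-46099519, both on the minus strand. Kcnip2, a calcium-binding partner of the transient outward channel, and Abcc9, the sulfonylurea receptor of the ATP-sensitive channel, form no pore and have no such stretch.

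The genes themselves differ widely in genomic size. Kcna5 spans 2.86 kb and Kcnj11 6.81 kb, followed by Kcnj2 at 10.7 kb, Kcnip2 at 24.2 kb and Kcnh2 at 32.0 kb. Abcc9 spans 114 kb, Kcnq1 321 kb and Kcnd2 514 kb. Each UMI marks 1 RNA molecule at its 3′ end whatever its length, so levels are compared between genes as UMIs per 1000000 nuclear-encoded UMIs (CPM), with no division by length. Annotation and priming at the 3′ end still enter such comparisons, including ratios of partner to pore, and their part was not tested.

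Kcnd2, the pore-forming subunit of the fast transient outward current, was the most abundant member in all 6 pools. LA had 406 UMIs (435 CPM), RA 207 (440.3 CPM), LV 1311 (511 CPM) and RV 1718 (575 CPM). Fixed cells had 230 UMIs (94.9 CPM), against 416 (280.4 CPM) in live cells. Kcnd2 made up 46.4% of all member UMIs in LA and 46.2% in RA. Its interval lay above that of every other member in each pool except fixed cells, where Abcc9, at 85.4 CPM (74.1 to 97.8), overlapped it (83.0 to 108 CPM).

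Kcnip2, which helps Kcnd2 reach the membrane and shapes its gating, was the next most abundant member in LA, LV and RV. Its level was 177 CPM in LA (165 UMIs), 115 CPM in RA (54 UMIs), 175 CPM in LV (450 UMIs) and 195 CPM in RV (582 UMIs). In the fixation study it stood lower in the order, at 39.2 CPM in fixed cells (95 UMIs) and 47.2 CPM in live cells (70 UMIs). Levels of the pair of studies are set side by side and not compared, because the share of UMIs taken by other loci differed between them.

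Kcnj2, the pore of the inward rectifier that sets the resting potential, was a low-abundance member. It had 43.9 CPM in LA, 46.8 CPM in RA, 33.1 CPM in LV and 34.5 CPM in RV, from 41, 22, 85 and 103 UMIs in that order. In the fixation study 39 UMIs in fixed cells gave 16.1 CPM, and 25 UMIs in live cells gave 16.8 CPM. Its paralog Kcnj12, which can join Kcnj2 in the same channel, lay lower still, at 10.7 CPM in LA, 14.9 CPM in RA, 10.9 CPM in LV and 14.4 CPM in RV.

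Kcnq1, the pore of the slow delayed rectifier, had 66.4 CPM in LA, 78.7 CPM in RA, 74.4 CPM in LV and 74.3 CPM in RV. Fixed cells had 40.8 CPM, against 64.7 CPM for live ones. The partner that slows its opening, Kcne1, was scarce: LA had 2 UMIs, RA 1, LV 19, RV 32, fixed cells 7 and live cells 2. In RV, the pool with most Kcne1, there were 0.144 Kcne1 UMIs for each Kcnq1 UMI (0.0962 to 0.209).

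Kcnh2, the pore of the rapid delayed rectifier, had 18.2 CPM in LA, 31.9 CPM in RA, 36.6 CPM in LV and 28.4 CPM in RV. The atrial pools rest on 17 UMIs in LA and 15 in RA. In the fixation study the levels were 21.4 CPM (fixed) and 24.3 CPM (live). In LV and RV, Kcnh2 and Kcnj2 had overlapping intervals and could not be put in order.

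Kcna5, the pore of the ultrarapid delayed rectifier, was near the limit of detection. It had 2 UMIs in LA, 1 in LV and 20 for RV. RA had 0 UMIs, and 3 counts, the floor used for a count of 0, would stand for 6.38 CPM there. The 20 RV UMIs came from 7 of 90 cells, 8 of them from 1 cell, and from 3 of the 4 libraries: 9 in library B, 9 in C and 2 in D. Set against RV, LV had 0.0582 times the level (0.00140 to 0.364), but with 21 UMIs in all the gene fell under the minimum of 30 used for counting calls.

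Kcnj11 and Abcc9 together form the ATP-sensitive channel, which opens when cellular energy falls: Kcnj11 is the pore and Abcc9 the regulatory receptor around it. Kcnj11 had 93.2 CPM in LA, 108 CPM in RA, 116 CPM in LV and 100.05 CPM in RV. Abcc9 had 102 CPM in LA, 132 CPM in RA, 116 CPM in LV and 100.05 CPM in RV. In LV both genes happened to total 297 UMIs and in RV both totalled 299, although they differed within libraries: in LV library A, Kcnj11 had 57 UMIs and Abcc9 105. In the fixation study fixed cells had 37.9 CPM of Kcnj11, against 23.6 CPM for live ones, and 85.4 CPM of Abcc9, against 118 CPM.

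In RV, then, the order by level ran from Kcnd2 through Kcnip2, the equal pair Kcnj11 and Abcc9, Kcnq1, Kcnj2 and Kcnh2 to Kcna5. The neighbours Kcnj2 and Kcnh2 overlapped within counting error, and the intervals of all other neighbours of unequal level were separate. In fixed cells Kcnq1, Kcnip2 and Kcnj11 lay together, between 37.9 and 40.8 CPM. The plot of member levels by cell label shows this order and the scatter of the 4 chamber libraries around each pool.

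**Figure D1:**
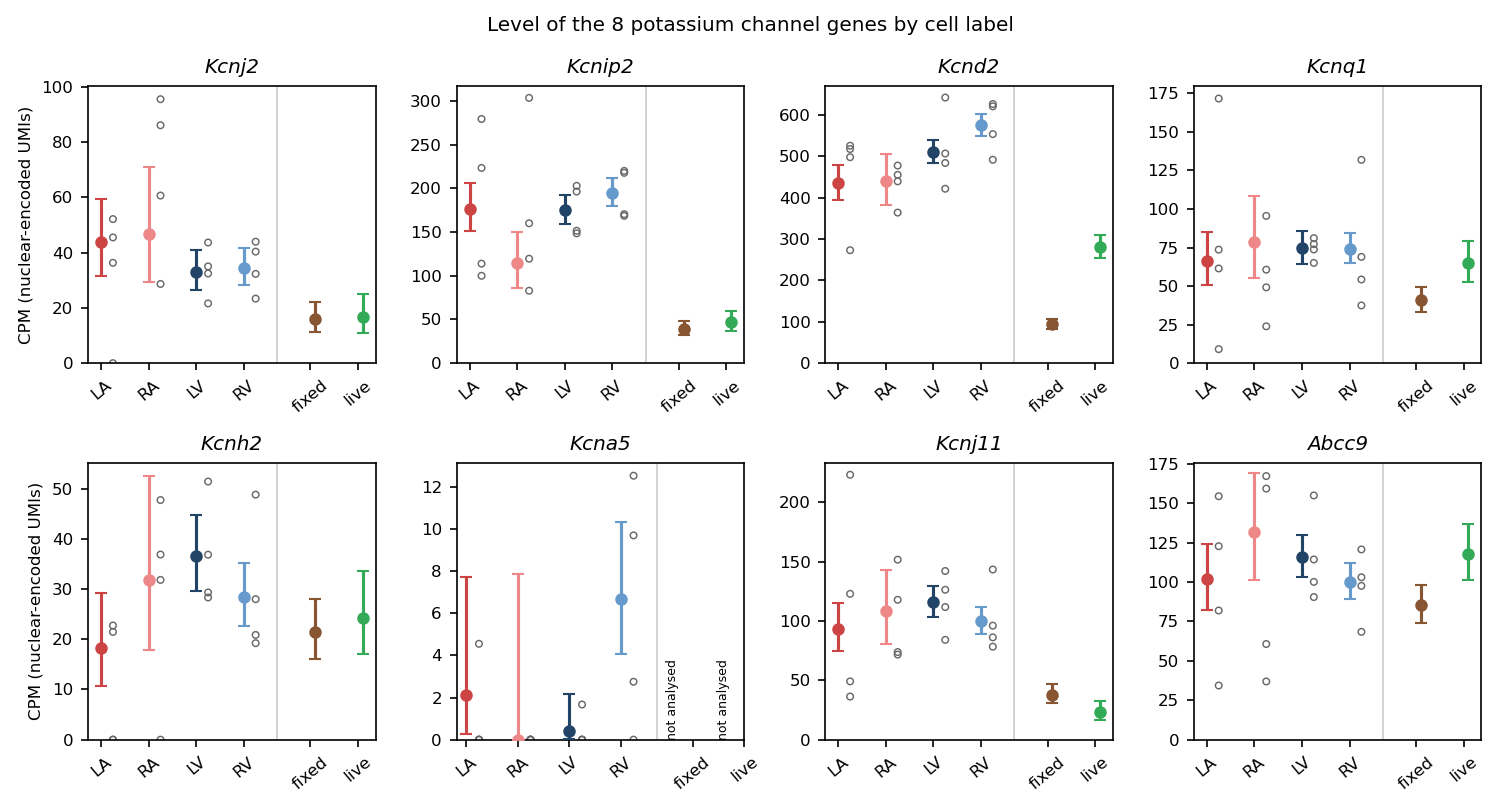
Level of each member as CPM of nuclear-encoded UMIs (linear axis) in the 6 pools, with exact 95% Poisson intervals of the pool (filled points, bars) and the values of single libraries of the chamber study (open circles). Kcnd2 is highest in every pool, its fixed value of 94.9 CPM lies far below its live value of 280.4 CPM, and the atrial libraries scatter more than the ventricular ones.

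Atrium-labelled cells were first set against ventricle-labelled cells. The combined LA and RA pool had 942 CPM of all 8 members, against 1090 CPM in the combined LV and RV pool, a ratio of 0.865 (0.814 to 0.918). Of the 7 members with at least 30 UMIs over both pools, 0 lay 1.5-fold or more apart, whereas 40.2% of the 11682 genes measured did. The median ratio of the 7 was 0.916, against 0.950 over all measured genes.

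Kcnd2 and Kcnip2 were the members whose intervals left out 1. Kcnd2 was lower in LA and RA together, with a ratio of 0.801 (0.733 to 0.874). Within libraries A to D the Kcnd2 ratio was 0.634, 0.827, 0.921 and 0.788, below 1 in all 4. The 2 mesothelial-rich LA cells held 195 of the 406 LA Kcnd2 UMIs and stood at 1237 CPM, against 272 CPM in the other LA cells. Without cells over the mesothelial limit the Kcnd2 ratio was 0.617, past 1.5-fold. This alternative was chosen after seeing the data, and the part of mesothelial RNA in the result was not tested.

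Kcnip2 had a ratio of 0.840 (0.722 to 0.972) between atrium-labelled and ventricle-labelled cells, but libraries did not share a direction. It was 1.23 in library A and 1.36 in library D, and 0.717 in library B and 0.458 in library C. Without library A the pooled ratio was 0.644, and without library C it was 1.01. The pooled Kcnip2 value therefore rests on which libraries are summed.

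The other members had intervals that included 1. Kcnj2 was at 1.33 (0.980 to 1.77) and stayed above 1 in all 19 alternatives, from 1.20 to 1.52. Within libraries A to D it was at 1.55, 1.31, 1.10 and 0.667, the last from 2 UMIs in LA and RA. Kcnh2 was at 0.707 (0.470 to 1.03), and at 0.625 without library B. Kcnq1 was at 0.948 (0.754 to 1.18) and Abcc9 at 1.04 (0.869 to 1.24). Kcnj11 was at 0.916 (0.756 to 1.10), a pooled value made of opposed libraries, with 0.602 (0.363 to 0.955) in library A and 1.96 (1.13 to 3.21) in library D.

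Cell depth moved with the labels, and it also moved with some of the members inside the ventricles. Among LV and RV cells, Kcnd2 was at 265 CPM in 25 cells with 1000 to under 20000 gene UMIs, 448 CPM in 72 cells with 20000 to under 50000, and 596 CPM in 84 cells with 50000 or more. Kcnq1 was at 45.0, 48.3 and 85.9 CPM in the same order of depth. Kcnip2 ran the other way, at 225, 202 and 177 CPM, with overlapping intervals between neighbouring bins. Kcnh2, Kcnj11 and Abcc9 were also highest in the shallowest bin, at 50.7, 163 and 146 CPM. Their intervals there overlapped those of the middle bin.

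At like depth Kcnd2 was lower in LA and RA in both deeper bins. In cells with 50000 or more gene UMIs it was at 519 CPM in LA and RA (468 to 575), against 596 CPM in LV and RV (572 to 621), with intervals that just overlapped. Both mesothelial-rich LA cells lie in that bin, and without them it was at 316 CPM (271 to 366), well below the LV and RV interval. In cells with 20000 to under 50000 it was at 380.4 CPM (326 to 442), against 448 CPM (415 to 483). In the shallowest bin it was at 296 CPM (232 to 374), against 265 CPM (194 to 352). Kcnj11 did not keep the same direction over the bins. LA and RA were at 51.8 CPM (36.4 to 71.3) in the deepest bin, against 107 CPM in LV and RV (97.0 to 118). In the middle bin they were at 171 CPM (135 to 214), against 101 CPM (85.8 to 119). In the shallowest they were at 100.2 CPM (64.2 to 149), against 163 CPM (109 to 234), with overlapping intervals.

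**Figure D2:**
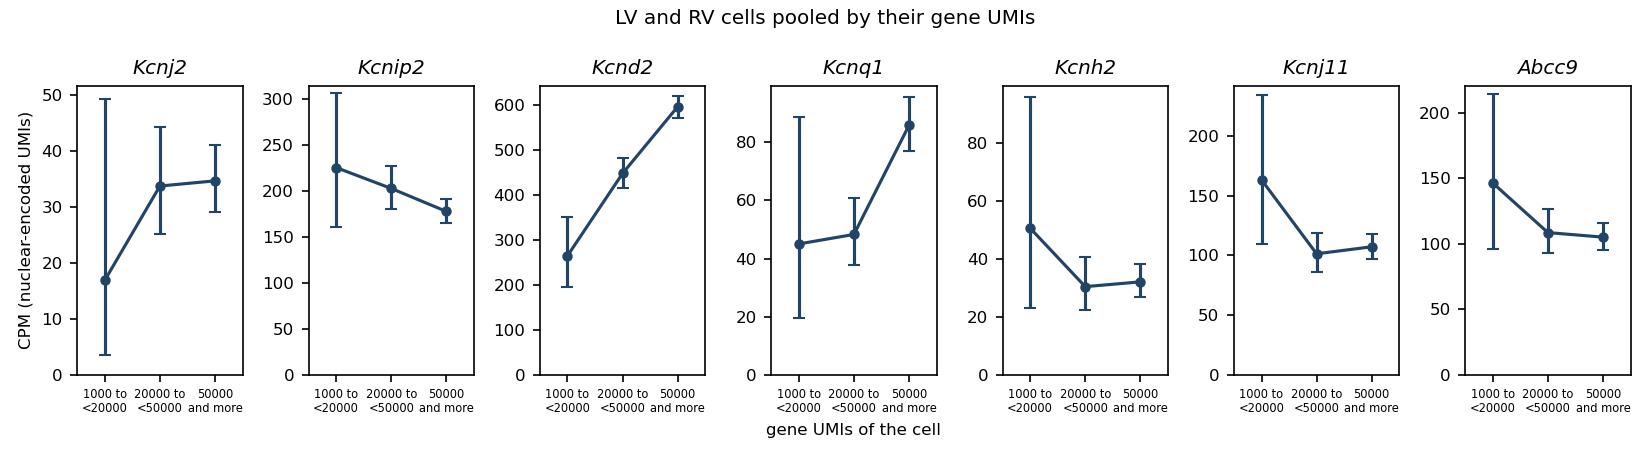
Level of 7 members (CPM of nuclear-encoded UMIs, linear axis) in LV and RV cells pooled in 3 bins of gene UMIs per cell, with exact 95% Poisson intervals. Kcnd2 goes from 265 CPM in the shallowest to 596 CPM in the deepest cells, while Kcnip2, Kcnh2, Kcnj11 and Abcc9 are highest in the shallowest bin.

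Within the ventricles, LV was set against RV, the deepest pair of pools. All 8 members summed to 1062 CPM in LV and 1114 CPM in RV, a ratio of 0.954 (0.907 to 1.00). Of 7 members measured 0 lay 1.5-fold apart, against 28.8% of 10812 genes. The median ratio was 1.00 for the members and 1.03 for all measured genes.

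Kcnd2 was the member whose interval left out 1, lower in LV with a ratio of 0.889 (0.826 to 0.956). The difference came from libraries C, at 0.762, and D, at 0.809, whereas libraries A and B stood at 0.984 and 1.03. The interval leaves out cell-to-cell spread, which was wide for Kcnd2, with a variance 4.22 times the mean at 10000 UMIs a cell. The median RV cell was also deeper, at 50503 gene UMIs against 40953 in LV, and the part of depth was not tested. Kcnip2 was at 0.901 (0.794 to 1.02). Kcnj2 was at 0.961 (0.713 to 1.29). Kcnj11 and Abcc9 were both at 1.16 (0.982 to 1.36), from libraries that did not share a direction. Kcnj11 was at 1.65 in library C and 1.61 in D, but 0.875 in A and 0.779 in B. Abcc9 was at 2.27 (1.57 to 3.32) in library A and between 0.927 and 0.971 in the other 3, and without library A it was at 0.939.

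Kcnq1 had a pooled LV over RV ratio of 1.00 (0.821 to 1.22) made of opposed libraries. In library A it had 73.8 CPM in LV and 37.5 CPM in RV, a ratio of 1.97 (1.18 to 3.38). In library D it had 81.1 CPM in LV and 132 CPM in RV, a ratio of 0.615 (0.430 to 0.870). Kcnh2 was at 1.29 (0.950 to 1.75) in the pool and at 1.58 without library A, past 1.5-fold. Library D alone was at 2.68 (1.39 to 5.41), from 33 UMIs in LV and 14 in RV.

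Between the atrium-labelled pools the counts were small. A single RA cell held 131227 of the 470095 nuclear-encoded UMIs of RA. It also held 27 of the 62 RA Abcc9 UMIs, 14 of 37 for Kcnq1, 60 of 207 for Kcnd2, 13 of 54 for Kcnip2 and 7 of 22 for Kcnj2. Another RA cell held 7 of the 15 RA Kcnh2 UMIs. All members summed to 937 CPM in LA and 953 CPM in RA, a ratio of 0.983 (0.876 to 1.10). Of 7 members measured, 2 lay 1.5-fold or more apart, Kcnip2 higher and Kcnh2 lower in LA, against 49% of 5715 genes. The members' share does not stand above that of all genes.

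Kcnip2 had 177 CPM in LA and 115 CPM in RA, a ratio of 1.54 (1.13 to 2.13). It was at 1.15 without library A and 1.04 without library C, so the call rests on those libraries. Kcnh2, with 17 UMIs in LA and 15 in RA, had a ratio of 0.571 (0.268 to 1.23), and with each cell weighted equally it reversed to 5.52. Kcnd2 was at 0.987 (0.833 to 1.17) in the pool and at 0.613 without the mesothelial-rich cells, and its top LA cell held 144 of the 406 LA UMIs. Leaving out library C also brought Kcnq1 to 1.65 and Kcnj2 to 0.540. Leaving out library A brought Abcc9 to 0.596, and leaving out library B brought Kcnj11 to 0.596. No member had an LA to RA difference that held through these settings and left out 1.

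Ethanol-fixed cells were then set against live ones. Each is 1 pool with no animal named, so fixation and differences between animals cannot be told apart. In fixed cells the members analysed summed to 336 CPM, against 575 CPM in live cells, a ratio of 0.584 (0.530 to 0.644). Kcnd2, Kcnq1 and Abcc9 were lower in fixed cells, Kcnj11 was higher, and the other 3 had intervals that included 1. Of 7 members, 3 lay 1.5-fold or more apart, 1 higher and 2 lower, against 50.8% of 7860 genes, 10.8% higher and 40% lower. The count of members called is thus near the background.

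The scale matters in this comparison. The median gene measured was at 0.766, or -0.38 on the log2 scale, with nuclear-encoded UMIs as the total. It was at -0.14 with all gene UMIs, 0.11 with edgeR's TMM scaling and 0.18 with median-of-ratios scaling. The members' median was 0.831, so ratios are read below against 0.766 as well as against 1.

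Kcnd2 stood furthest from 1 of the members. Its 94.9 CPM in fixed cells against 280.4 CPM in live cells gave a ratio of 0.338 (0.287 to 0.398), or 2.96-fold lower. It was below 1, and 1.5-fold or more apart, in all 15 alternatives, from 0.313 to 0.50. In cells with at least 10000 nuclear-encoded UMIs, the lowest, median and highest cell were at 0, 45.7 and 423 CPM in 34 fixed cells, against 0, 177 and 726 CPM in 27 live cells. The median live cell thus lay above the upper quartile of fixed cells, 152 CPM, although the ranges overlapped. A single live cell held 129 of 416 UMIs, and without the top cell the ratio was 0.426.

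The Kcnd2 difference was also present at like depth. The median kept cell held 77150 gene UMIs in fixed and 40367 in live cells. In cells with 50000 or more gene UMIs, Kcnd2 was at 94.1 CPM in 22 fixed cells (81.3 to 108), against 299.5 CPM in 14 live cells (269 to 332). In cells with 20000 to under 50000 it was at 99.7 CPM in fixed (70.2 to 137), against 211 CPM in live cells (155 to 282).

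Kcnq1 was at 0.631 (0.472 to 0.845), from 99 UMIs in fixed and 96 in live cells. It stayed below 1 in all 15 alternatives, but at 0.933 under median-of-ratios scaling and 0.859 without its top cell, so the 1.5-fold call depends on the scaling and on 1 live cell with 30 UMIs. Kcnq1ot1, an antisense RNA that shares 121 exon bases with Kcnq1, had 13 UMIs (5.36 CPM) in fixed cells, against 44 (29.7 CPM) in live cells. The strand setting of the counting is not given in the sources used here, so reads in the shared bases cannot be told apart.

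Abcc9 was at 0.724 (0.589 to 0.890) and close to the median gene, but it moved both ways with the settings. It was at 0.445, past 1.5-fold, with each cell weighted equally. It passed 1 under TMM, at 1.02, and under median-of-ratios, at 1.07. Its partner Kcnj11 was at 1.61 (1.08 to 2.45), the only member above 1, and stayed above 1 in all 15 alternatives, from 1.07 to 2.38. The lowest value came with cells weighted equally, and the gene rests on 92 UMIs in fixed and 35 in live cells.

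Kcnip2 was at 0.831 (0.604 to 1.15), Kcnh2 at 0.884 (0.567 to 1.39) and Kcnj2 at 0.955 (0.563 to 1.65). Each of these 3 changed side of 1 in some alternatives, for Kcnip2 at 1.23 under median-of-ratios, for Kcnh2 at 1.36 with read counts and for Kcnj2 at 1.67 without its top cell. With counts from 25 to 95 UMIs a pool, differences of the size of the intervals were not detectable at this depth. Without Kcnd2 the summed members were at 0.818 (0.721 to 0.928).

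**Figure D3:**
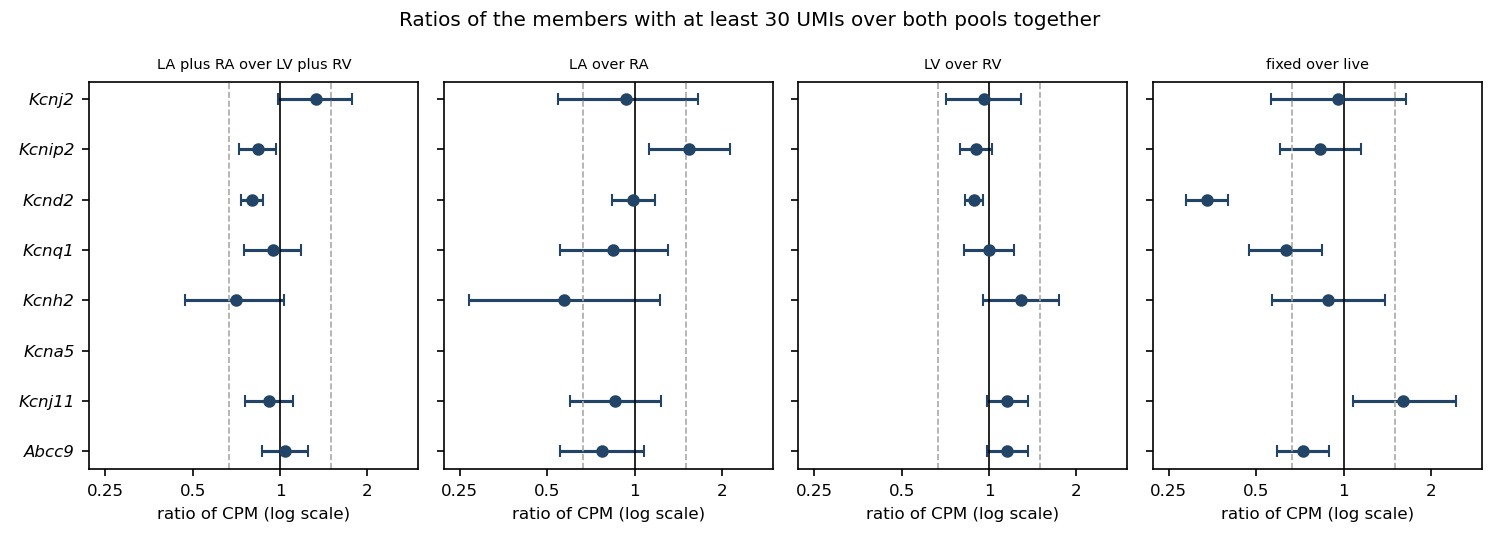
Ratio of CPM (log axis) of each member with at least 30 UMIs over both pools, in 4 comparisons, with exact 95% intervals for counting error; dashed lines mark 1.5-fold either way. Between atrium-labelled and ventricle-labelled cells and between LV and RV the points lie inside the 1.5-fold lines, between LA and RA Kcnip2, at 1.54, and Kcnh2, at 0.571, lie outside them, and the point furthest from 1 is Kcnd2 between fixed and live cells, at 0.338.

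The fixed to live ratio of the members followed the order of their gene spans. Kcnj11, the shortest of the 7 at 6.81 kb, had the highest ratio and Kcnd2, the longest at 514 kb, the lowest, with Abcc9 and Kcnq1 next to Kcnd2 in both orders. Spearman's rank correlation was -0.964 over the 7 members. This is a description across genes of the same pools, was noticed after seeing the data, and carries no test. The rank correlation of ratio and exonic length was -0.214 over the same 7 genes, and that of ratio and UMI count was -0.857. The ratio thus followed abundance almost as closely as span, and over 7 genes the one cannot be told apart from the other.

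The same lean was present across the table. Over 6618 protein-coding genes the rank correlation of fixed to live ratio and gene span was -0.334, and with UMI count it was 0.111. The median ratio was 0.953 for 1163 genes under 10 kb, 0.894 for 10 to 30 kb, 0.699 for 30 to 100 kb, 0.603 for 100 to 300 kb and 0.503 for 476 genes of 300 kb or more. Kcnd2, at 0.338, lay below the lower quartile of genes of its span, 0.371, but above that quartile without its top cell. Kcnq1, at 0.631, lay inside the quartiles of the same class, 0.371 to 0.687. Kcnj11 lay above the upper quartile of genes under 10 kb, 1.31. Between LV and RV the same correlation was 0.0145, and between atrium-labelled and ventricle-labelled cells -0.105.

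**Figure D4:**
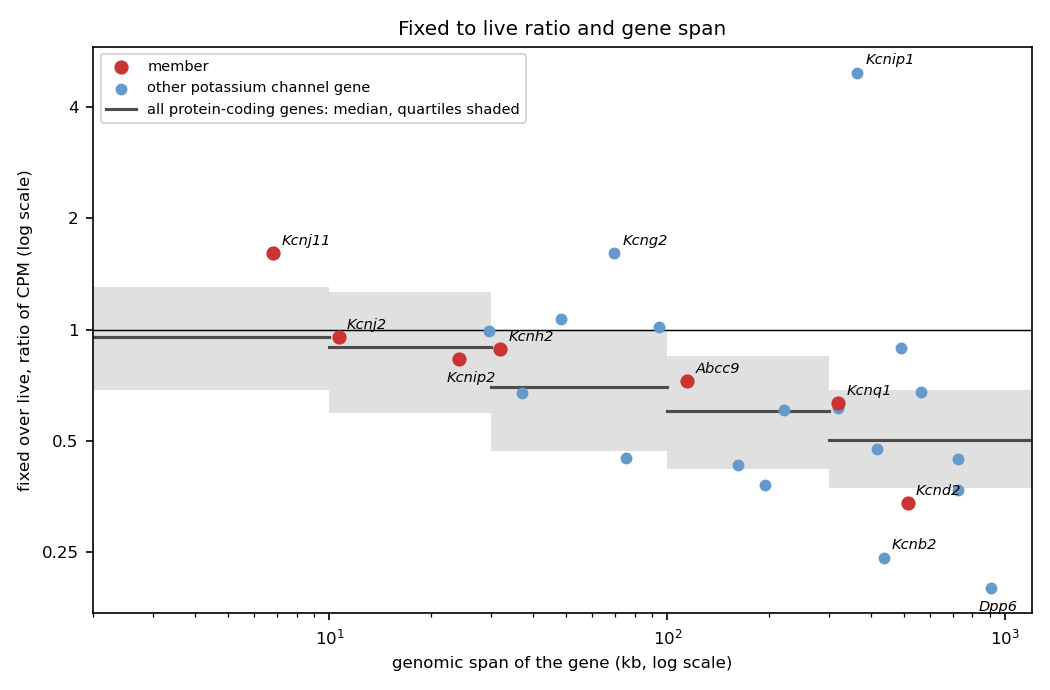
Ratio of CPM in fixed over live cells (log axis) against genomic span (kb, log axis) for 7 members and 18 other potassium channel genes, with the median and quartiles of all protein-coding genes in 5 span classes; the outermost classes are drawn to the edges of the plot. Members run from Kcnj11 at 1.61 to Kcnd2 at 0.338, and Kcnip1, at 4.96, lies far outside the lean.

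The partner subunits can be set against each other inside a pool, where the total cancels. There were 0.413 Kcnip2 UMIs per Kcnd2 UMI in fixed cells (0.322 to 0.527), against 0.168 in live cells (0.129 to 0.217). Without the top Kcnip2 cell the fixed value was 0.333 (0.254 to 0.434), and without the top Kcnd2 cell the live value was 0.237 (0.179 to 0.310). In the chamber study LA stood at 0.406, RA at 0.261, LV at 0.343 and RV at 0.339. The LA value rests on few cells and libraries: it was 1.02 in library A, 0.216 in B, 0.193 in C and 0.448 in D, and leaving out library A brought the LA pool to 0.233. It was at 0.657 with library B left out, and at 0.735 with the mesothelial-rich cells left out. RA was at 0.406 without library C. LV and RV had nearly the same ratio of partner to pore, and the 8 ventricular library values ran from 0.231 to 0.447.

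Kcnj11 per Abcc9 was 0.444 in fixed cells (0.344 to 0.571), against 0.200 in live cells (0.135 to 0.289), and the intervals did not overlap. Without the top Kcnj11 cell the fixed value was 0.386 (0.295 to 0.503). Without the top Abcc9 cell the live value was 0.227 (0.150 to 0.335), and these intervals overlapped. LA stood at 0.916, RA at 0.823 and both ventricular pools at 1.00. The LA libraries A to D were at 0.400, 1.50, 0.235 and 6.50, and LA was at 0.559 without library B. In both pairs the count of the shorter-span gene relative to its partner was higher in fixed than in live cells. Kcne1 per Kcnq1 went the same way on few UMIs, at 0.0707 against 0.0208. Abcc8 (75.5 kb) per Abcc9 went the other way, at 0.106 in fixed cells against 0.171 in live cells, with overlapping intervals. Kcnj12 (48.6 kb) per the shorter Kcnj2 was at 0.538 in fixed against 0.480 in live cells, also with overlapping intervals. The part of span was not tested. Kcnd3, the paralog of Kcnd2 and pore of the same current, ran at 0.374 per Kcnd2 in fixed (0.288 to 0.481), against 0.209 in live cells (0.164 to 0.264), or 0.279 (0.215 to 0.358) in live cells without the top Kcnd2 cell.

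**Figure D5:**
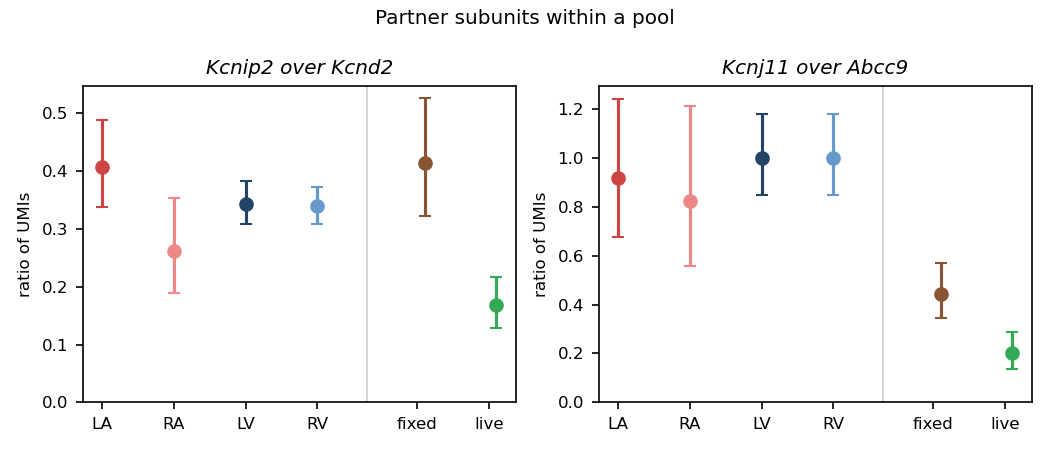
UMIs of a partner divided by UMIs of its pair within each pool (linear axes), Kcnip2 over Kcnd2 and Kcnj11 over Abcc9, with exact 95% intervals. Both ratios are higher in fixed than in live cells, 0.413 against 0.168 and 0.444 against 0.200, and LV and RV are nearly equal.

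Abcc9 with Kcnj8 also forms the channel of mural cells, the smooth muscle cells and pericytes of small vessels, so mural RNA was looked for beside these genes. Kcnj8 had 37 UMIs in LV and 8 in RV, a ratio of 5.39 (2.47 to 13.4), or 1.98 without library B and 19.3 without library C. A single LV cell held 20 of the 37, and 97 mural marker UMIs, 13.0% of those in LV, were in the same cell. The 7 mural markers summed to 126 CPM in LA and 187 CPM in RA, against 291 CPM in LV and 237 CPM in RV.

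Abcc9 did not track the mural markers in 1 direction. In LV it was at 127 CPM in 69 cells with at least 1 mural UMI and 68.4 CPM in 22 cells with none. In RV it was at 84.4 CPM in 72 cells with mural UMIs and 176 CPM in 18 cells with none. A single RV cell held 29 of the 90 Abcc9 UMIs of those 18 cells. The split also leans on Acta2, which held 437 of the 707 mural marker UMIs in RV and 341 of 747 in LV. Kcnj11 was at 119 CPM in LV cells with mural UMIs and 103 CPM in those with none, and at 93.7 and 131 CPM in RV. Abcc9 was thus present in ventricular cells without a mural UMI.

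Other potassium channel genes were taken from a list of 49. The most abundant in the chamber study was Kcnk3, an acid-sensitive background channel, at 200.3 CPM in LA, 247 CPM in RA, 214 CPM in LV and 249 CPM in RV, above every member but Kcnd2. Kcng2 followed in LV and RV at 150.4 and 186 CPM.

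Between atrium-labelled and ventricle-labelled cells 29 of them were measured, 4 at least 1.5-fold higher (background 17% of genes), 9 lower (background 23.2%) and 16 neither. Kcnj5, a subunit of the acetylcholine-gated channel best known from atrium and sinus node, was at 57.0 CPM in LA and RA against 21.1 CPM in LV and RV, a ratio of 2.71 (2.01 to 3.63). That value came from LA, at 76.0 CPM, whereas RA was at 19.1 CPM, below LV at 26.5 CPM. A single LA cell held 28 of the 71 LA UMIs, and without it the ratio was 1.81. Kcnt2, a sodium-activated channel, was at 4.64 (3.15 to 6.85), and at 2.62 without the LA cell that held 29 of its UMIs. Kcnn3, a small-conductance calcium-activated channel, was at 2.58 (1.25 to 5.16), with 0 UMIs in RA and 11 of 15 LA UMIs in 1 cell. Kcnh7 was at 1.92 (0.986 to 3.59), with 10 of 14 LA UMIs in 1 cell. Without those single cells Kcnn3 was at 0.703 and Kcnh7 at 0.721, so 2 of the 4 higher genes, and 6 of the 9 lower ones, were still past 1.5-fold without their top cell. Kcnj3, the usual partner of Kcnj5, was at 81.4 CPM in LA and 38.3 CPM in RA, against 96.6 CPM in LV and 93.0 CPM in RV.

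The lower genes included Kcne1, Kcnj8, Kcnb2, Kcnab2, Dpp10, Kcnh1, Kcnma1 and Kcnmb4, with 33 to 120 UMIs each. Kcne1, the partner of Kcnq1, was at 0.233 (0.0465 to 0.720) from 3 UMIs in LA and RA and 51 in LV and RV. Dpp10, an accessory subunit of the transient outward channel, was at 0.363 (0.169 to 0.693), and at 0.194 without library A. Kcne1 was at 0.147 without library A.

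LV was at least 1.5-fold higher than RV in 9 of 28 other channel genes, against 16.9% of all genes, and lower in 1, against 11.9%. The 9 were Kcnj8, Kcnj5, Kcnv2, Kcnab1, Kcnab2, Dpp6, Kcnh7, Kcnma1 and Kcnmb4. Without the top cell of each gene 3 of the 9 were still past 1.5-fold. Dpp6, a further accessory subunit of the transient outward channel, was at 1.61 (1.09 to 2.40), but at 0.975 without library B and 3.34 without library A. Kcnma1, the large-conductance calcium-activated channel of smooth muscle, was at 1.83 (1.22 to 2.80), at 1.45 without library A and 2.89 without library C. Between LA and RA 4 of 13 were higher and 2 lower in LA, against 31.6% and 17.4% of all genes. Kcnd3 was the lower gene with most UMIs, at 40.7 CPM in LA and 164 CPM in RA, a ratio of 0.248 (0.164 to 0.371), with 47.0% of its UMIs in 1 cell, and at 0.600 without that cell. Dpp6 was the other, and Kcnj3, Kcnj5, Kcnq5 and Kcnt2 were the higher genes. Without the top cell of each gene, 2 of the 4 higher and 1 of the 2 lower were past 1.5-fold.

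Between fixed and live cells 18 were measured, 2 higher and 10 lower in fixed cells, against 10.8% and 40% of all genes. Without the top cell of each gene 9 of the 10 were still lower by 1.5-fold or more, and Kcnh1 was at 0.903. Among other subunits of the transient outward channel, Kcnd3 was at 0.605 (0.444 to 0.825), Dpp6 at 0.200 (0.106 to 0.357) and Dpp10 at 0.367 (0.180 to 0.724). Kcnip2, at 0.831 (0.604 to 1.15), was not past 1.5-fold. Kcnd3, Dpp6 and Dpp10 span 222, 910 and 724 kb, against 24.2 kb for Kcnip2, and the part of span was not tested. In fixed cells Dpp6 had 16 UMIs and Dpp10 15, at 1.19 and 1.2 reads a UMI, against 30.1 for Kcnip2. Kcnk2, a stretch-sensitive background channel, was at 0.378, and Kcnn2, a small-conductance calcium-activated channel, at 0.474. Abcc8, the paralog of Abcc9 known from the pancreatic beta cell, was at 0.449. Kcnj3 was at 0.430, Kcnb2 at 0.241, Kcnma1 at 0.445 and Kcnh1 at 0.612. Kcng2, a silent subunit that modifies other voltage-gated channels, was higher at 1.61 (1.26 to 2.07).

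Kcnip1, a paralog of Kcnip2, was the other gene higher in fixed cells, and its counts stood apart from those of every other channel gene. It had 28894 CPM in fixed cells and 5823 CPM in live cells, against 76.6 to 130.2 CPM in the 4 chamber pools. The cause was not tested, and no level of the channel protein is read from this locus. Pseudogenes and ribosomal RNA genes took 28.6% of nuclear-encoded UMIs in fixed and 33.8% in live cells. With those loci, and others far apart between the studies, left out of the total, Kcnd2 was at 0.353, close to its main value.

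Members also differed in how unevenly they were spread over cells. In 163 LV and RV cells thinned to 10000 nuclear-encoded UMIs, the variance of Kcnd2 UMIs was 4.22 times the mean, against a median of 2.43 for 117 genes of like mean. Abcc9 was at 2.72 against 2.19, Kcnq1 at 2.60 against 2.09 and Kcnip2 at 2.51 against 2.19. Kcnj11 went the other way, at 1.51 against 2.17, and so did Kcnh2, at 1.54 against 2.02. Kcnj2 was at 2.01 against 1.99. At 20000 UMIs, in 124 cells, Kcnd2 was at 8.33 against 3.50 and Abcc9 at 3.82 against 3.00, while Kcnj11, at 2.04 against 3.00, and Kcnh2, at 1.91 against 2.75, were again below. At that depth Kcnq1, at 2.95 against 2.85, lay inside the quartiles of genes of like mean. At 10000 UMIs it had lain above the upper quartile, 2.52. Kcnip2, at 3.15 against 2.95, lay inside the quartiles at both depths. These are descriptions across cells of different libraries, and Kcnd2 also followed cell depth before thinning.

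The spread is plain in the cells themselves. Among 83 RV cells with at least 10000 nuclear-encoded UMIs, Kcnd2 ran from 0 through a median of 368 to 2111 CPM, with 1 cell at 0. Among 80 LV cells it ran from 0 through 381 to 1646 CPM, with 2 cells at 0. Kcnj11 was at 0 in 19 RV cells and 12 LV cells, with medians of 78.8 CPM in RV and 88.4 CPM in LV. Kcnj2 was at 0 in 56 of the RV cells and 42 of the LV cells, and Kcnh2 in 49 and 43.

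The median cell had UMIs of 3.5 of the 8 members for LA, 2 for RA, 5 for LV and 5 for RV. Thinned to 5000 gene UMIs, the expected share of cells with a Kcnd2 UMI was 55.6% for LA, 67.4% for RA, 61.7% for LV and 63.2% for RV, against 66.1%, 70.5%, 91.2% and 94.4% of all kept cells. It was 29.0% in fixed and 49.3% in live cells thinned, and 80.0% and 90.3% unthinned. Thinning left out 20 LA, 26 RA, 2 LV, 3 RV and 1 fixed cell. No cell type that lacks these genes was sorted beside them, so the share that free RNA gives was not measured.

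No gene followed a member closely from cell to cell. Over 163 LV and RV cells and 4254 genes, the highest Pearson correlation of log2(CPM + 5) with any member was 0.493, for Kcnd2, under the limit of 0.5 set for naming. Among the members themselves the highest was 0.175. The points share libraries and differ in depth.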

How the data were processed

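The authors deposited counts: UMI and read tables of genes by cell barcode for either study, not normalized, plus per-cell tables of chamber or fixation label, library and totals. The percent values that the authors deposited in the per-cell tables were not used. The submitters' processing notes name STAR 2.5.4b, featureCounts and GRCm38. For annotation, strand setting and UMI collapsing nothing is given in the sources used here. Columns of 45 barcodes that carried no label were not used. The 84 cell barcodes were reused in the 4 chamber libraries, with no full barcode repeated. Plates were sorted, and no doublet caller was run.

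UMIs were summed per label over kept cells and divided by nuclear-encoded UMIs (CPM), leaving mitochondrially encoded genes out of the total. Ratios carry exact 95% Clopper-Pearson intervals, levels exact Poisson intervals, and a count of 0 a floor of 3 counts. A gene with at least 30 UMIs over both pools was measured, and called at 1.5-fold or more. The ratio and its interval were tested on simulated data. Gene spans and coding sequences came from GENCODE M21, matched by gene ID, and 8 of 8 members matched. Tools were scipy 1.17.1, pandas 2.3.3 and numpy 2.4.6 under Python 3.11.15, and for TMM edgeR 4.0.16 in R 4.3.3.

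The members, the list of 49 other channel genes and the marker lists were chosen with earlier results of these data known. All members are named, and some results under these rules are not reported here. Of the other genes, those past 1.5-fold, the 8 most abundant and paralogs or partners of members could be named, and genes like a member only at a correlation of 0.5 or more. Alternatives changed the total or scaling, the cell filter, the gene minimum, UMIs for reads, the weight of cells, the pseudocount, the top cell and each library.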

Additional observations from a re-analysis of the deposited data

How the results depend on the processing

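Of the single-member values under all alternatives 455 moved by less than their interval, 49 moved by more and 1 reversed. That was Kcnh2 between LA and RA, at 5.52 with each cell weighted equally. A value counted as reversed only if its main ratio was past 1.5-fold and the alternative lay on the other side of 1. Ratios nearer 1 changed side without being counted so. Kcnq1 in LV over RV kept its side of 1 in 12 of 18 alternatives. Kcnj2 and Kcnh2 in fixed over live cells each kept it in 10 of 15. For sums and counts of members 107 held and 27 moved. Between LA and RA together and LV and RV together, the sum was 0.963 with all gene UMIs as the total and 0.748 with cells weighted equally. The count past 1.5-fold was 1 with cells weighted equally, with no gene minimum and without mesothelial-rich cells, and 0 to 1 without each library. Between LA and RA the count was 1 under TMM, median-of-ratios, both stricter cell filters, all labelled cells and the gene minimum of 100, 0 without the top cells, and 1 to 2 without each library, and the sum was 1.27 with read counts. Between LV and RV the sum was 0.903 under TMM, 0.890 under median-of-ratios and 0.879 with read counts. The count was 1 with read counts, without cells over 2% non-myocyte RNA and with no gene minimum, and 0 to 1 without each library. Between fixed and live cells the sum was 0.693 with all gene UMIs, 0.824 under TMM, 0.863 under median-of-ratios and 0.648 without the top cells. Beyond the change of total itself, the cause was not tested. No paired analysis was possible because no animal is named and no result comes from a test. All 4 chamber labels occur in each of libraries A to D, and pooled within libraries the sum was 0.870 for LA and RA over LV and RV, 0.960 for LA over RA and 0.955 for LV over RV. Among other channel genes and ratios of subunits, tried after seeing the data, 5 values reversed: Kcnn3 at 0.703 and Kcnh7 at 0.721 without their top cells, and without 1 library Kcnn3 (0.242 to 4.61 over the 4), Kcnh7 (0.671 to 2.76) and Dpp6, LV over RV (0.975 to 3.34). Depth limits Kcna5, Kcnh2 and Kcnj2, with at most 103 UMIs a pool.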
